A study of Mus musculus with 24 samples.

Results

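Tsc22d3 encodes GILZ, a leucine zipper protein whose gene is switched on directly by the glucocorticoid receptor in many mouse tissues. Among the 12 libraries of inguinal white adipose tissue sampled at ZT3, of 24 in the whole series, 6 had a deposited Tsc22d3 value above 250 and 6 had 250 or below. The sets were thus selected on the measured Tsc22d3 value, whatever the treatment label, and compared across all other genes. The set above 250 held 5 RUN libraries and 1 SED library, and the set at or below 250 held 1 RUN and 5 SED libraries. Because the sets were cut on measured values of these same libraries, differences between them are given as descriptions with no test. Tests come from the 12 ZT15 libraries, which did not enter the split.

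All mice were male C57BL6 animals, aged 10 to 11 weeks. RUN mice had 1 hour of exercise, and SED mice had a sham hour on an artificial treadmill. ZT, zeitgeber time, counts hours from lights on, so a nocturnal mouse has begun to rest at ZT3 and to be active at ZT15. Each combination of treatment and time gave 6 libraries of stranded total RNA, depleted of ribosomal RNA, and the hour after the bout at which fat was taken is not given in the labels. Libraries are named by time, treatment and a number given in record order, as in ZT3_SED_1. Nothing in the labels ties each library to its own mouse, so p-values measure the spread between libraries. The ZT3 libraries above 250 had 26225928 to 34678732 reads in listed genes, those at or below 250 had 23507841 to 34490655, and the ZT15 libraries had 18493799 to 32184313. Values are reads scaled by 1 factor per library, as deposited, and their sum still differs between libraries. They are not divided by gene length, so they are compared between libraries and not between genes.

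Glucocorticoids are steroid hormones of the adrenal cortex. In mice their blood level peaks around the start of the dark phase and also rises within minutes of handling, stress or exercise. Bound by hormone, the glucocorticoid receptor enters the nucleus and sits on DNA elements that raise transcription of genes such as Tsc22d3, Fkbp5, Per1 and Ddit4. In fat these hormones act on lipolysis, lipid storage and the response to insulin. Exercise also raises catecholamines, which act on fat cells through cAMP and switch on a partly shared set of early genes.

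Tsc22d3 was at 395, 390, 386, 356, 328 and 299.8 in ZT3_RUN_2, ZT3_SED_1, ZT3_RUN_3, ZT3_RUN_4, ZT3_RUN_5 and ZT3_RUN_6. It was at 189, 176, 168, 133, 129 and 127 in ZT3_SED_3, ZT3_SED_4, ZT3_SED_6, ZT3_SED_5, ZT3_SED_2 and ZT3_RUN_1. No library lay between 189 and 299.8, so any threshold in that interval gives the same sets. ZT3_SED_1 stood with the exercised libraries, and ZT3_RUN_1 had the lowest value of all 12. In the sample titles ZT3_SED_1 and ZT3_RUN_1 carry the consecutive numbers 10 and 11. RUN library 9 and SED library 10 were both above 250, and RUN library 11 and SED library 12 were both at or below it. The labels do not say what these numbers stand for, and whether the pattern reflects the animals, the handling or the labels cannot be told apart here.

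**Figure D1:**
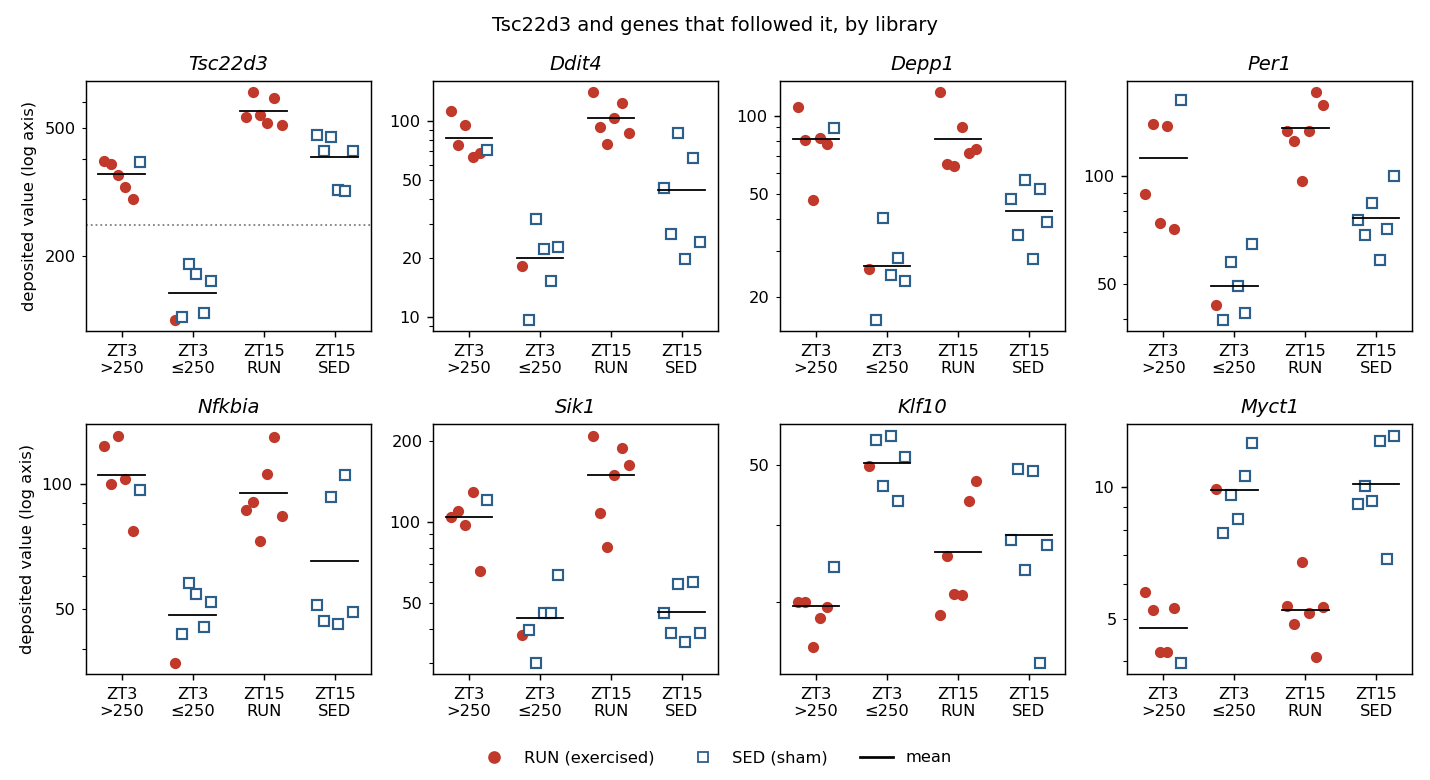
Deposited values (log axis) of Tsc22d3, the dotted line marking 250, and of 7 genes that followed it, per library: ZT3 libraries above 250, ZT3 libraries at or below 250, ZT15 RUN and ZT15 SED, with 6 libraries in each column. Red circles are RUN, open blue squares are SED and bars are means; in the first column of each panel the single blue square is ZT3_SED_1, and in the second column the single red circle is ZT3_RUN_1.

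A gene was counted as following Tsc22d3 when the sets did not overlap and their mean log2(value + 1) differed by at least 1.5-fold. Of the 16232 other genes, 48 followed it upwards (0.296%) and 15 followed it downwards, being lower where Tsc22d3 was high (0.0924%). With no minimum size, 100 genes lay wholly higher (0.616%) and 58 wholly lower (0.357%). These shares describe the split and were not read against any expectation. For the 48 genes the difference ran from 0.60 to 2.03 on the log2 scale with a median of 0.90. For the 15 its size ran from 0.61 to 1.10, with a median of -0.75. The non-overlap rule forces ZT3_SED_1 to the high side and ZT3_RUN_1 to the low side. Within that limit ZT3_SED_1 was the highest of its 6 libraries for 12 of the 48 genes and the nearest to the other set for 1. ZT3_RUN_4 was the highest for 16 and the nearest for 10, and ZT3_RUN_6, the library with the least Tsc22d3 of the 6, was the nearest for 31. ZT3_RUN_1 was the lowest of its 6 libraries for 7 of the 48 genes and the nearest to the other set for 5. Without ZT3_RUN_6, 76 genes followed upwards and 25 downwards, and without ZT3_RUN_2, 48 and 25. Leaving out any library can only relax the non-overlap rule, and a follower can then be lost only through the 1.5-fold minimum.

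One library above 250, ZT3_RUN_4, carried RNA of lymphocytes. Its value of Cd79a, a component of the B cell receptor, was 99.2, against at most 0.833 in the other 11 ZT3 libraries. The summed values of 14 lymphocyte markers were 1699 in ZT3_RUN_4, 12.2 to 21.6 in the other libraries above 250 and 14.4 to 23.6 in those at or below. Its summed adipocyte markers were 11613, against 20903 to 29335 in the other libraries above 250 and 22909 to 27445 in those at or below 250. The inguinal depot contains a lymph node. Without ZT3_RUN_4, 82 genes followed upwards, 43 of the 48 among them, and 22 downwards, 13 of the 15 among them. The 5 genes that no longer followed upwards were Gimap6, Gimap9, Cyth1, Cdc42ep3 and Chka, and the 2 lost downwards were Irs1 and Cxxc4, all named after these values were seen. In bulk tissue, fewer cells of a type and less RNA per cell cannot be told apart. Adipoq, the adipocyte hormone adiponectin, was at 1101, 2346 and 2976 (lowest, median and highest, an order kept throughout) in the libraries above 250 and at 2138, 2401 and 3183 in those at or below 250. The fat label thus held in every ZT3 library, with the least Adipoq in a library above 250.

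Ddit4 and Depp1 had the largest differences among followers with above-median expression. Ddit4 (REDD1) restrains the growth kinase complex mTORC1 and is itself a glucocorticoid target. Its values were 65.4, 73.3 and 113 in the libraries above 250 and 9.70, 20.2 and 31.7 in those at or below 250, a difference of 2.03. Every library of the high set had more than 2 times the Ddit4 value of the highest library of the low set. Depp1, an autophagy regulator known as a target of FOXO factors, was at 47.3, 81.3 and 108 above 250 and 16.4, 25.0 and 40.2 at or below, a difference of 1.59. For both genes ZT3_SED_1 lay inside the range of the RUN libraries, at 71.6 for Ddit4 and 89.6 for Depp1.

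On the list of glucocorticoid-induced genes, 4 of the 29 measured besides Tsc22d3 followed upwards, beside 0.296% of all genes, and none followed downwards. They were Ddit4, Per1, Nfkbia and Arrdc2. Per1, a repressor of the circadian clock that glucocorticoids also switch on directly, was at 71.4, 114 and 163 in the libraries above 250 and 39.7, 46.5 and 64.8 in those at or below, a difference of 1.12. The highest Per1 value of all 12 libraries was that of ZT3_SED_1. Nfkbia, the inhibitor that holds NF-kB in the cytoplasm, was at 77.2, 101 and 131 above 250 and 37.0, 48.6 and 57.7 at or below, with all 6 libraries of the high set well clear of the low set (1.10). Arrdc2, an arrestin-domain protein, was at 13.1, 16.7 and 31.2 above and 7.67, 8.61 and 13.1 at or below 250, and its sets all but touched.

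Other classical targets differed in the mean while their sets overlapped. Fkbp5, a chaperone that lowers the receptor's hormone binding and is a standard marker of its activity, was at 107, 168 and 238 above 250 and 55.7, 58.1 and 109 at or below, a difference of 1.31 with 1 low-set library reaching past the lowest of the high set. Sgk1, a kinase that controls ion transport, was at 76.7, 127 and 135 above 250 and 53.2, 68.3 and 100.3 at or below, and the sets overlapped. Klf9 and Zbtb16, both transcription factors, overlapped more widely: Klf9 was at 80.6, 169 and 213 above 250 and 86.3, 118 and 165 at or below, and Zbtb16 was at 129.7, 265 and 354 above and 117, 189 and 253 at or below. Of the 29 measured list members other than Tsc22d3, 27 had a split difference above 0, with a median of 0.63, beside 8336 of 16232 genes and a median of 0.00 over all genes. Without ZT3_RUN_4 all 29 were above 0, with a median of 0.75. The list was drawn up with earlier results of these data known.

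The receptor and the genes that set its hormone supply did not follow. Nr3c1, the glucocorticoid receptor itself, was at 264, 296 and 334 in the libraries above 250 and 328, 351 and 369 in those at or below, a difference of -0.24 with overlapping sets. Hsd11b1, the enzyme that regenerates active glucocorticoid inside fat, was at 157, 319.9 and 406 above and 222, 300.1 and 349 at or below 250, a difference of 0.00. Of 12 genes for the receptor, its chaperones and its cofactors, 7 had a difference above 0 and the median was 0.00.

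Of 14 measured genes switched on through cAMP, 2 followed upwards, beside 0.296% of all genes, and the sets overlapped for the other 12. Sik1, a kinase induced by cAMP that feeds back on CREB signalling, was at 65.6, 107 and 129 above 250 and 30.0, 42.8 and 63.6 at or below, a difference of 1.24. Nr4a3, an orphan nuclear receptor, was at 8.60, 21.9 and 44.8 above and 2.33, 4.65 and 8.43 at or below, a difference of 2.00, and its sets were separated by a narrow gap. Irf4, a transcription factor tied to lipolysis in mouse fat, had the larger difference of 2.27 and yet overlapping sets, at 94.2, 451 and 788 above 250 and 33.2, 67.1 and 191 at or below. On this list 13 of 14 had a difference above 0, with a median of 0.52, beside 8336 of 16232 genes and a median of 0.00. Without ZT3_RUN_4, 12 were above 0 and the median was 0.63.

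Immediate early genes did not share a direction. Nr4a3 and Maff, a small Maf transcription factor at 6.08, 7.09 and 11.5 above 250 and 3.14, 3.57 and 5.59 at or below, followed upwards, and Klf10 followed downwards. Fos, a subunit of the AP-1 factor, was at 17.2, 27.1 and 105 in the libraries above 250 and 22.3, 47.3 and 156 in those at or below, so its mean was lower where Tsc22d3 was high (-0.79) with wide overlap. Egr1, a zinc finger early gene chosen after its values were seen, averaged 24.0 ± 21.8 above 250 and 70.6 ± 56.7 at or below (SD, n = 6 each), also with overlap. Over the 24 genes of the list 13 had a difference above 0, and the median was 0.07.

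Several followers are known outside these lists. Sdc4, a heparan sulfate proteoglycan of the cell surface, was at 51.8, 78.0 and 94.3 above 250 and 30.0, 33.5 and 36.8 at or below, with a gap between the sets of 29.7% of the range over the 12 libraries, the third widest of the named, better expressed followers after Klf10 and Ddit4. Mbd1, which binds methylated DNA, was at 102, 191 and 214 above and 63.6, 72.5 and 77.6 at or below 250. Trp53inp1, a stress-induced autophagy protein, was at 88.0, 144 and 193 above and 54.0, 65.7 and 81.7 at or below. The split differences of Sdc4, Mbd1 and Trp53inp1 were 1.12, 1.18 and 1.11, more than 2-fold each. Apold1, an early response gene of endothelium, was at 19.1, 46.5 and 50.7 above 250 and 13.6, 15.0 and 18.5 at or below, a difference of 1.21. S1pr1, the sphingosine-1-phosphate receptor of endothelium and lymphocytes, was at 100.3, 138 and 164 above and 69.0, 83.8 and 98.7 at or below, and Tbc1d10a, a GTPase-activating protein of Rab GTPases, at 20.1, 23.7 and 26.5 above and 12.5, 14.1 and 16.4 at or below. Less expressed followers included Slc10a6, a carrier of sulfated steroids, at 10.4, 15.6 and 17.5 above 250 and 3.34, 4.57 and 8.52 at or below, with a difference of 1.39. Vdr, the vitamin D receptor, was at 1.92, 2.74 and 5.50 above and 0.411, 0.804 and 1.03 at or below.

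Other higher followers stood out through ZT3_RUN_4. Cxcr4, the chemokine receptor that guides lymphocytes, was at 170.3 in that library and at 15.1 to 21.4 in the other 5 libraries above 250, against 7.84 to 11.7 in those at or below 250. Its difference was 1.33 with ZT3_RUN_4 and 0.79 without it. Stk17b, a kinase abundant in lymphocytes, was at 376 in ZT3_RUN_4, and its difference was 1.11 with and 0.76 without it. Gimap6, a GTPase of lymphocytes, was at 171 there, and its difference was 0.71 with and 0.35 without it. Cyth1, an exchange factor for Arf GTPases, was at 173 there, with a difference of 0.68 and of 0.54 without it. Lymphocyte markers were also high in ZT3_RUN_4. Without it 5 of 14 had a difference above 0, with a median of -0.08, while these 4 genes stayed above 0. The part of lymphocyte RNA in the differences was not tested beyond leaving that library out.

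Fewer genes followed downwards, and of the 15 only 3 had a named symbol and above-median expression. Klf10, an early gene induced by TGF-beta, was at 25.3, 29.7 and 34.1 in the libraries above 250 and 43.6, 50.7 and 55.7 in those at or below, a difference of -0.75, with the widest gap of the named, better expressed followers, 31.2% of the range. Dmrt2, a DM-domain transcription factor, was at 13.1, 24.3 and 35.0 above and 37.6, 44.4 and 50.3 at or below 250, a difference of -0.90. Irs1, the adaptor that carries the insulin receptor's signal, was at 84.5, 128 and 162 above and 164, 183 and 281 at or below, a difference of -0.63 with a narrow gap. The other 12 lay below the median of expression. Hic1, a transcriptional repressor chosen after its values were seen, was at 5.14, 8.28 and 11.0 above 250 and 13.5, 16.8 and 19.3 at or below. Snai1 and Snai2, related repressors of the Snail family picked in the same way, were lower too, Snai1 at 0.601, 1.10 and 1.52 above and 1.53, 2.09 and 2.72 at or below 250, and Snai2 at 1.5, 1.72 and 2.56 above and 2.98, 4.11 and 4.87 at or below.

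**Figure D2:**
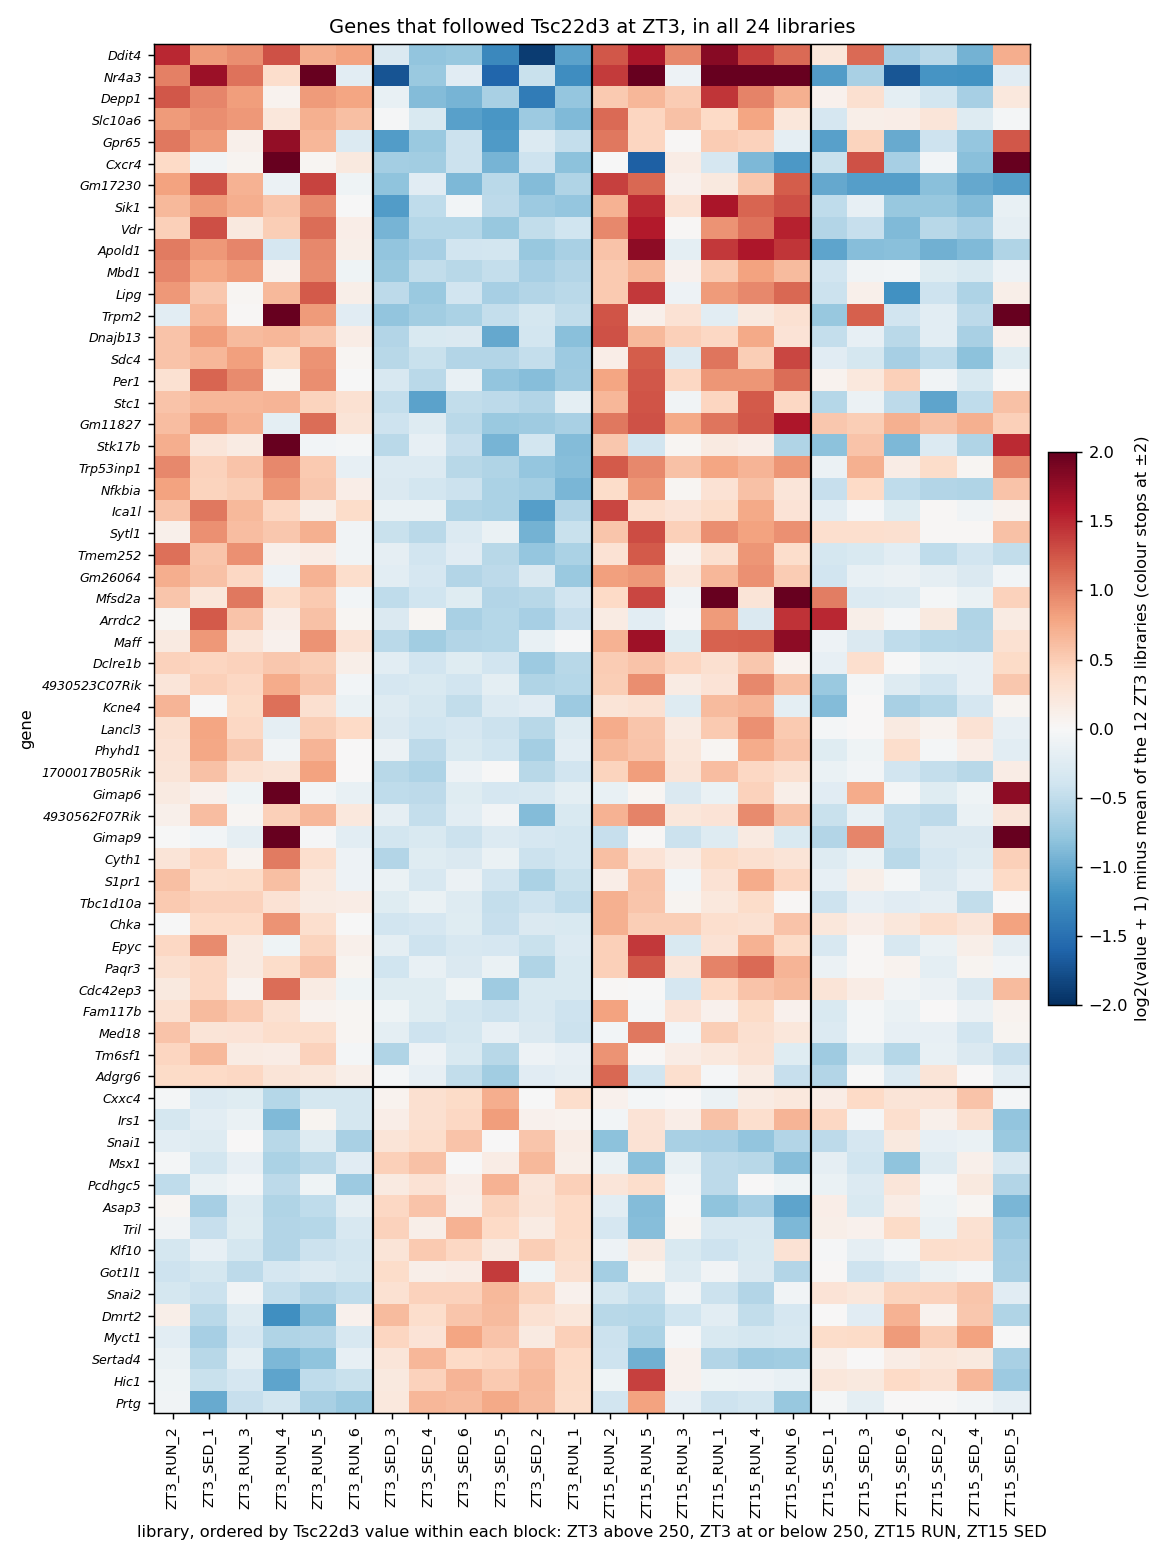
The 48 genes that followed Tsc22d3 upwards (upper block) and the 15 that followed it downwards (lower block) in all 24 libraries, as log2(value + 1) minus the gene's mean over the 12 ZT3 libraries, with colour stopping at 2 in each direction. Libraries run by Tsc22d3 value within 4 blocks: ZT3 above 250, ZT3 at or below 250, ZT15 RUN, ZT15 SED; the ZT15 RUN block is mostly red for the 48 genes, and ZT3_RUN_4 and ZT15_SED_5 are darkest for Cxcr4, Trpm2, Stk17b, Gimap6 and Gimap9.

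Promoter windows of RefSeq (build GRCm38.p6, from 250 bases before to 50 bases after a gene's start) were found for 49 of the 63 followers, 38 of the 48 and 11 of the 15. They are shown for 4 followers because the motifs searched are the binding elements of the pathways above. The glucocorticoid element (AGAACA, 3 bases of any kind, TGTTCT), searched on both strands like the others, was in none of the followers' windows and in 3 of 32851 windows of the whole table. Its looser form (GNACA, 3 bases of any kind, TGTNC), which every full element also matches, was in 1 of 47 windows of genes that followed upwards, that of Slc10a6, and in 0.475% of all windows. The cAMP element TGACGTCA was in the windows of Paqr3 and Maff, 4.26% of the 47 against 1.79% of all and 2.74% of the 15520 windows of genes in the deposited table. The E-box CACGTG, the element of clock activators, was in those of Per1, Maff, Kcne4 and Stk17b, 8.51% of the 47 against 7.15% of all and 9.28% of those of genes in the deposited table. The FOXO element TGTTTAC was in 1 of the 47 windows, 2.13%, against 3.65% of all and 2.64% of those of genes in the deposited table. Of the 13 windows of genes that followed downwards, 1 held the E-box, that of Irs1, 1 the FOXO element, and none the others. The windows of the 4 genes follow, 5′ to 3′ on the gene's strand, with the matches in capitals. A match is a stretch of letters and not a measured binding site, and these windows leave out distal elements, where the glucocorticoid receptor mostly binds.
Slc10a6, chr5:103629354-103629653, minus strand: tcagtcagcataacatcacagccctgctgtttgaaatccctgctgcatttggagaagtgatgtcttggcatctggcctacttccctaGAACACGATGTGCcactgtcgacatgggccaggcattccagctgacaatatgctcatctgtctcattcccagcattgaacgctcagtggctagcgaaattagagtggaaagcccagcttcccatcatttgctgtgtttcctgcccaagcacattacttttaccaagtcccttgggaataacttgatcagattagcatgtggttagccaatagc
Paqr3, chr5:97111547-97111846, minus strand: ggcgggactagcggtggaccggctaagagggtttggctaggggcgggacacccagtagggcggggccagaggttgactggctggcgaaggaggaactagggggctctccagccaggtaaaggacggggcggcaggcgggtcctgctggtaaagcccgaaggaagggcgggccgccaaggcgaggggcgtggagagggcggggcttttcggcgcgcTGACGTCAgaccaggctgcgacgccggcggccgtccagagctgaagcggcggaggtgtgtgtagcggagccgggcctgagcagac
Maff, chr15:79347270-79347569, plus strand: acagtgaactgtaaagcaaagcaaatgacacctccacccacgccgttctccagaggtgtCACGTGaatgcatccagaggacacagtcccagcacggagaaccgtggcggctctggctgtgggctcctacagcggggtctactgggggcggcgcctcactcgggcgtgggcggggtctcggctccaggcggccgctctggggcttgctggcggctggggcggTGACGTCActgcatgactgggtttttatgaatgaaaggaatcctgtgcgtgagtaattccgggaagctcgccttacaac
Per1, chr11:69098699-69098998, plus strand: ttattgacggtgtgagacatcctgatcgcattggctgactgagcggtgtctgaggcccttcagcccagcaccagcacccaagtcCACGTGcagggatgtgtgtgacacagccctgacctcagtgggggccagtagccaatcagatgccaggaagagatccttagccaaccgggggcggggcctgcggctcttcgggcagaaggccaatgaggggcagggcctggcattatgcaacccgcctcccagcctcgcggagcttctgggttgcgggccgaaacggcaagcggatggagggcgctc

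In Slc10a6 the looser glucocorticoid match starts 163 bases before the gene's start, in Per1 the E-box starts 166 bases before it, and in Paqr3 and Maff the cAMP element starts 35 and 29 bases before it.

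The ZT15 libraries were used to ask whether genes that followed Tsc22d3 at ZT3 also differed with exercise at the other time. The ZT3 sets held 5 RUN and 1 SED against 1 RUN and 5 SED libraries. Genes that follow Tsc22d3 and genes that differ with exercise therefore cannot be told apart by this comparison. Tsc22d3 itself was at 509.6, 544 and 643 in ZT15 RUN and 318, 424 and 474 in ZT15 SED, so the groups did not overlap, and the difference was 0.49 ± 0.12 (log2 ± SE). It did not pass in limma's moderated test with Benjamini-Hochberg adjustment over all 16233 genes, used for every ZT15 value here (adjusted p = 0.0942). Even the lowest ZT15 SED library lay above 299.8, the lowest ZT3 value of the high set.

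Of the 48 genes that followed upwards, 13 rose with exercise at ZT15 at an adjusted p under 0.05 and none fell, while 80 of all genes rose (0.493%). The estimate was above 0 for 45 of the 48, with a median of 0.63, beside 50.7% of all other genes and a median of 0.00. At an unadjusted p under 0.05, 38 of the 48 were higher, against 6.43% of all genes. The RUN and SED libraries did not overlap for 15 of the 48, against 0.998%. Of the 15 genes that followed downwards, 1 fell, Myct1, beside 15 of all genes (0.0924%). Their estimate was below 0 for 13, with a median of -0.22, and 5 were lower at an unadjusted p under 0.05, against 6.59% of all genes. RUN and SED did not overlap for 1 of them, against 0.745%. The calls turned on single libraries: leaving out any ZT15 library but ZT15_SED_5 moved the 13 calls to between 5 and 8, or to 20 for ZT15_RUN_3, and leaving out any but those 2 ended the call of Myct1.

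Sik1 rose to 80.7, 156 and 209 in ZT15 RUN, against 35.8, 42.4 and 59.8 in ZT15 SED, a change of 1.63 ± 0.22 (adjusted p = 0.0147). Apold1 was at 21.1, 66.5 and 86.2 in RUN and 11.1, 12.8 and 15.5 in SED, and it rose by 1.97 ± 0.29 (adjusted p = 0.0147). Nr4a3 was at 9.35, 46.4 and 76.1 in RUN and 2.37, 3.99 and 8.48 in SED, the largest change among the 48 at 2.76 ± 0.42 (adjusted p = 0.0154). In these 3 genes every RUN library exceeded every SED library. Per1 averaged 137 ± 26.1 in RUN and 76.4 ± 14.5 in SED (SD, n = 6 each) and rose by 0.83 ± 0.15 (limma adjusted p = 0.0341), higher than the SED mean in 6 of 6 RUN libraries although the ranges overlapped slightly. Mbd1 rose by 0.73 ± 0.11, Vdr by 1.57 ± 0.23 and Paqr3, a Golgi protein, by 0.83 ± 0.16, with limma adjusted p of 0.0147, 0.0147 and 0.0458. The others called were Dnajb13, Tmem252 and the less characterised Gm17230, Gm26064, 1700017B05Rik and 4930562F07Rik, with changes from 1.79 for Gm17230 down to 0.72 for 1700017B05Rik. Across the alternatives, leaving out single libraries included, the call was lost in 16 for Tmem252, 14 for Paqr3, 13 for 4930562F07Rik, 12 each for Per1 and 1700017B05Rik, and 10 for Dnajb13. It was lost in 1 each for Mbd1, Vdr, Nr4a3 and Gm26064, and in none for Sik1, Apold1 and Gm17230. How reads shared by overlapping or antisense transcripts were assigned is unknown, which bears most on these uncharacterised loci.

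Ddit4 and Depp1, which led the better expressed followers at ZT3, did not pass at ZT15. Ddit4 was at 76.6, 98.7 and 139.9 in RUN and 19.8, 36.1 and 86.8 in SED, a difference of 1.37 ± 0.33 with an adjusted p of 0.0894 by limma, and every RUN library lay above the SED mean. Depp1 was at 63.9, 73.1 and 123 in RUN and 28.0, 43.3 and 56.4 in SED without overlap, a difference of 0.91 ± 0.19 (limma adjusted p = 0.0637). The difference was 0.60 ± 0.23 for Nfkbia (adjusted p = 0.289, limma) and 1.13 ± 0.26 for Sdc4 (adjusted p = 0.0748, limma). A p that misses the threshold does not show that these genes did not differ.

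Cxcr4 and Stk17b, both highest at ZT3 in ZT3_RUN_4, were highest at ZT15 in the SED library with the most Cd79a. Cxcr4 was at 4.44, 10.2 and 17.8 in RUN and 8.43, 13.4 and 84.4 in SED, its highest value in ZT15_SED_5, where Cd79a was 54.6. The difference for Cxcr4 was -0.92 ± 0.53 (limma adjusted p = 0.484), and that for Stk17b was 0.07 ± 0.38 (limma adjusted p = 0.962). Without the libraries with Cd79a above 5 (ZT15_SED_3 and ZT15_SED_5 at this time), 47 of the 48 estimates were above 0 with a median of 0.79, and again 13 were called.

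Among genes lower with Tsc22d3 at ZT3, Myct1, a gene of endothelium chosen after its values were seen, was at 4.08, 5.23 and 6.74 in RUN and 6.84, 9.66 and 13.1 in SED, and it fell with a change of -0.83 ± 0.15 (limma adjusted p = 0.0375). Klf10 was at 28.6, 33.2 and 47.1 in RUN and 23.9, 37.4 and 49.2 in SED, a difference of -0.07 ± 0.18 (adjusted p = 0.905, limma), and its groups overlapped over most of their range. The estimate for Irs1 was in the other direction, at 0.27 ± 0.20 (limma adjusted p = 0.612), and did not pass.

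**Figure D3:**
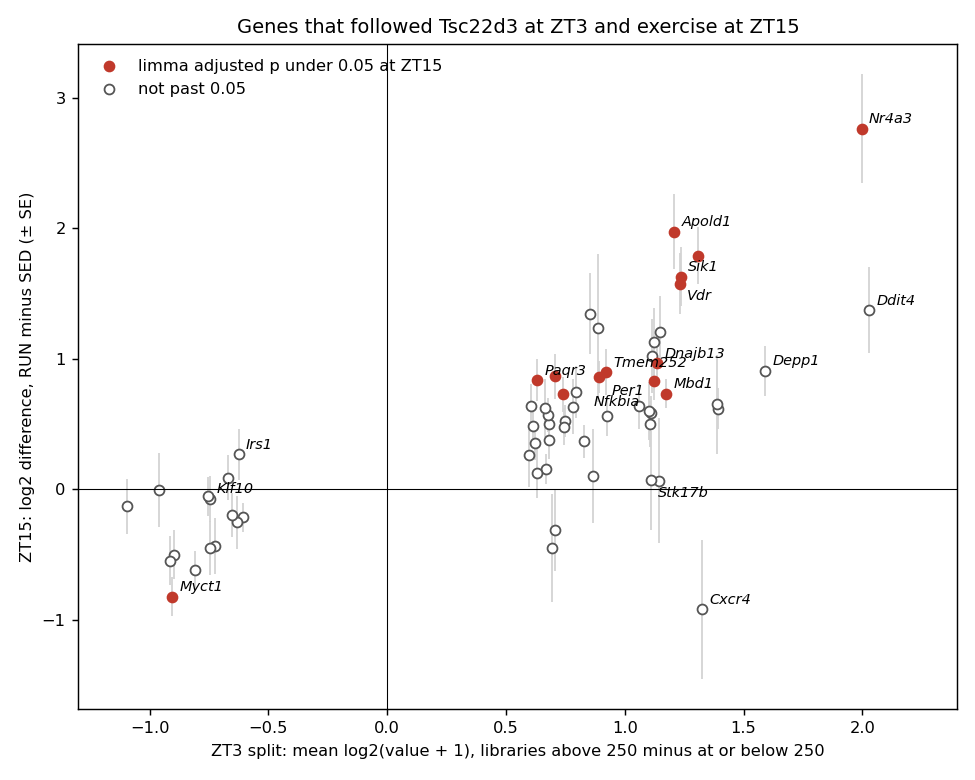
For each of the 63 followers, the difference in the ZT3 split (mean log2(value + 1) of libraries above 250 minus those at or below) against the ZT15 change (RUN minus SED, log2, ± SE). Filled points passed limma's adjusted p under 0.05 at ZT15; 45 of the 48 points on the right lie above 0 on the vertical axis, and 13 of the 15 on the left lie below 0.

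Glucocorticoid-induced genes were tested at ZT15 as well. Of the 29 measured, 28 had an estimate above 0, with a median of 0.60, and 6 rose, beside 0.493% of all genes. They were Per1 and 5 genes named after their values were seen. Errfi1, an inhibitor of the EGF receptor, averaged 295 ± 114 in RUN and 71.1 ± 19.0 in SED and rose by 1.98 ± 0.27 (SD, n = 6 each; limma adjusted p = 0.0147). Rgs2, which restrains G protein signalling, rose by 1.69 ± 0.30, Irs2, an insulin receptor substrate, by 1.53 ± 0.28, Dusp1, a phosphatase of MAP kinases, by 1.31 ± 0.21, and Cebpd, an adipogenic transcription factor, by 1.11 ± 0.21. Across the alternatives the call was lost in 13 for Rgs2, 12 each for Irs2 and Cebpd, 3 for Dusp1 and none for Errfi1. In the ZT3 split the sets overlapped for all 5, with differences of 1.36 for Errfi1, 0.61 for Rgs2, 0.54 for Irs2, 0.63 for Dusp1 and 1.09 for Cebpd. Fkbp5 was at 206, 258 and 357 in ZT15 RUN and 153, 189.6 and 246 in ZT15 SED and did not pass (0.52 ± 0.15, limma adjusted p = 0.174). Estimates above 0 at ZT15 were not particular to this list. They made up 12 of 12 heat shock, 8 of 8 endothelial and 8 of 8 Schwann cell genes (medians 0.26, 0.19 and 0.39). For muscle and clock genes they were 14 of 14 and 17 of 20 (0.87 and 0.16). The lists mostly below 0 were lymphocyte (0 of 14 above), lipogenesis (5 of 16), inflammatory (7 of 15), macrophage (3 of 8) and epithelial (1 of 5).

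The cAMP-responsive list had 14 of 14 estimates above 0 at ZT15, with a median of 1.38, and 6 genes rose, beside 50.7% above 0 and 0.493% called over all genes. Irf4 rose the most of them, to 182, 1107 and 1744 in ZT15 RUN, against 59.2, 78.3 and 145 in ZT15 SED (3.28 ± 0.47, limma adjusted p = 0.0147). Among immediate early genes 22 of 24 estimates were above 0 at ZT15, the median was 0.81 and 3 rose, against the same shares over all genes. Nr4a1, an orphan nuclear receptor related to Nr4a3, was among them, with a change of 2.48 ± 0.49 (limma adjusted p = 0.0469), a call lost in 13 of the alternatives. The lists share members, so their counts are not separate results. The calls of Nr4a1 and Nr4a3 count on both the cAMP-responsive and the immediate early list. That of Rgs2 counts on both the glucocorticoid-induced and the cAMP-responsive list. Fos was at 13.2, 19.5 and 62.8 in RUN and 4.07, 9.53 and 19.3 in SED, a difference of 1.15 ± 0.41 that did not pass (limma adjusted p = 0.260), whereas its mean in the ZT3 split was lower on the Tsc22d3-high side. The difference between these 2 comparisons was not tested.

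Metabolic and structural lists had small differences in the split, which were closer to 0 without ZT3_RUN_4. Of 16 lipogenesis genes 0 had a difference above 0, with a median of -0.16, but without ZT3_RUN_4 6 of 16 did, with a median of -0.02. Scd1, a fatty acid desaturase, was at 35916, 49938 and 78384 above 250 and 38235, 53992 and 71023 at or below, and Fasn, the fatty acid synthase, at 10045, 16528 and 25391 above and 9486, 20031 and 25052 at or below. For 16 lipolysis genes the median was -0.18, and -0.03 without ZT3_RUN_4; Pnpla2, the first lipase of lipolysis, was at 726, 1291 and 1498 above and 1059, 1352 and 1692 at or below. Fatty acid oxidation had a median of -0.15 over 18 genes and -0.07 without ZT3_RUN_4, with 1 gene above 0 each time, Pdk4. Pdk4, which shuts glucose carbon out of mitochondria, was at 220.2, 278 and 715 above 250 and 163, 262 and 333 at or below. The extracellular matrix median was -0.25 over 19 genes and -0.11 without ZT3_RUN_4, and that of 10 adipocyte markers was -0.21 and -0.01. No member of these 5 lists followed Tsc22d3 in either direction. At ZT15 the estimate was above 0 for 14 of 16 lipolysis, 17 of 18 fatty acid oxidation, 18 of 19 matrix and 8 of 10 adipocyte genes. Their medians were 0.16, 0.24, 0.20 and 0.15. In the split 1, 1, 1 and 0 of these genes were above 0, or 6, 1, 7 and 4 without ZT3_RUN_4. The difference between the 2 comparisons was not tested. On the extracellular matrix list 1 of the 19 genes rose at ZT15, Thbs1, a matrix glycoprotein, by 2.10 ± 0.37 (limma adjusted p = 0.0336; named after its values were seen), a call lost in 11 of the alternatives.

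Clock genes other than Per1 did not follow. Of 20 genes 7 had a difference above 0, and the median was -0.17, or -0.08 without ZT3_RUN_4. FOXO and fasting-induced genes had 15 of 20 above 0 and a median of 0.15, with no follower. Hypoxia-induced genes had 9 of 14 above 0 and a median of 0.05, or 12 of 14 and 0.10 without ZT3_RUN_4, and their single follower was Ddit4. Inflammatory genes had 9 of 15 above 0 with a median of 0.18, and 7 of 15 with a median of -0.07 without ZT3_RUN_4. Heat shock and chaperone genes had 11 of 12 above 0, with a median of 0.16 and no follower.

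Markers of other cell types were read beside these results. The 14 lymphocyte markers had 14 differences above 0 and a median of 0.85, and without ZT3_RUN_4 5 of 14 and a median of -0.08. Summed skeletal muscle markers ranged from 438 to 19006 above 250 and from 105 to 19297 at or below, so the sets overlapped. Of the 14 muscle markers 10 had a difference above 0, with a median of 0.20. Without ZT3_RUN_4, which had the 438, the sum was at least 1128 above 250, 12 of 14 were above 0 and the median was 0.76, and the part of muscle RNA in the split was not tested. All 8 Schwann cell markers had a difference above 0 with a median of 0.24 and overlapping sets, at 199 to 512 summed above 250 and 250 to 366 at or below. Macrophage, endothelial and fibroblast markers had medians of -0.06, -0.03 and -0.02, and of 0.04, 0.06 and 0.13 without ZT3_RUN_4. Thermogenic fat markers had a median of -0.21, and Ucp1, the uncoupling protein, was at 1.34, 9.05 and 27.1 above and 0.0342, 26.1 and 73.0 at or below 250. Keratinocyte and mammary epithelial markers had a median of 0.05 over the 5 measured. None of these markers followed Tsc22d3.

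**Figure D4:**
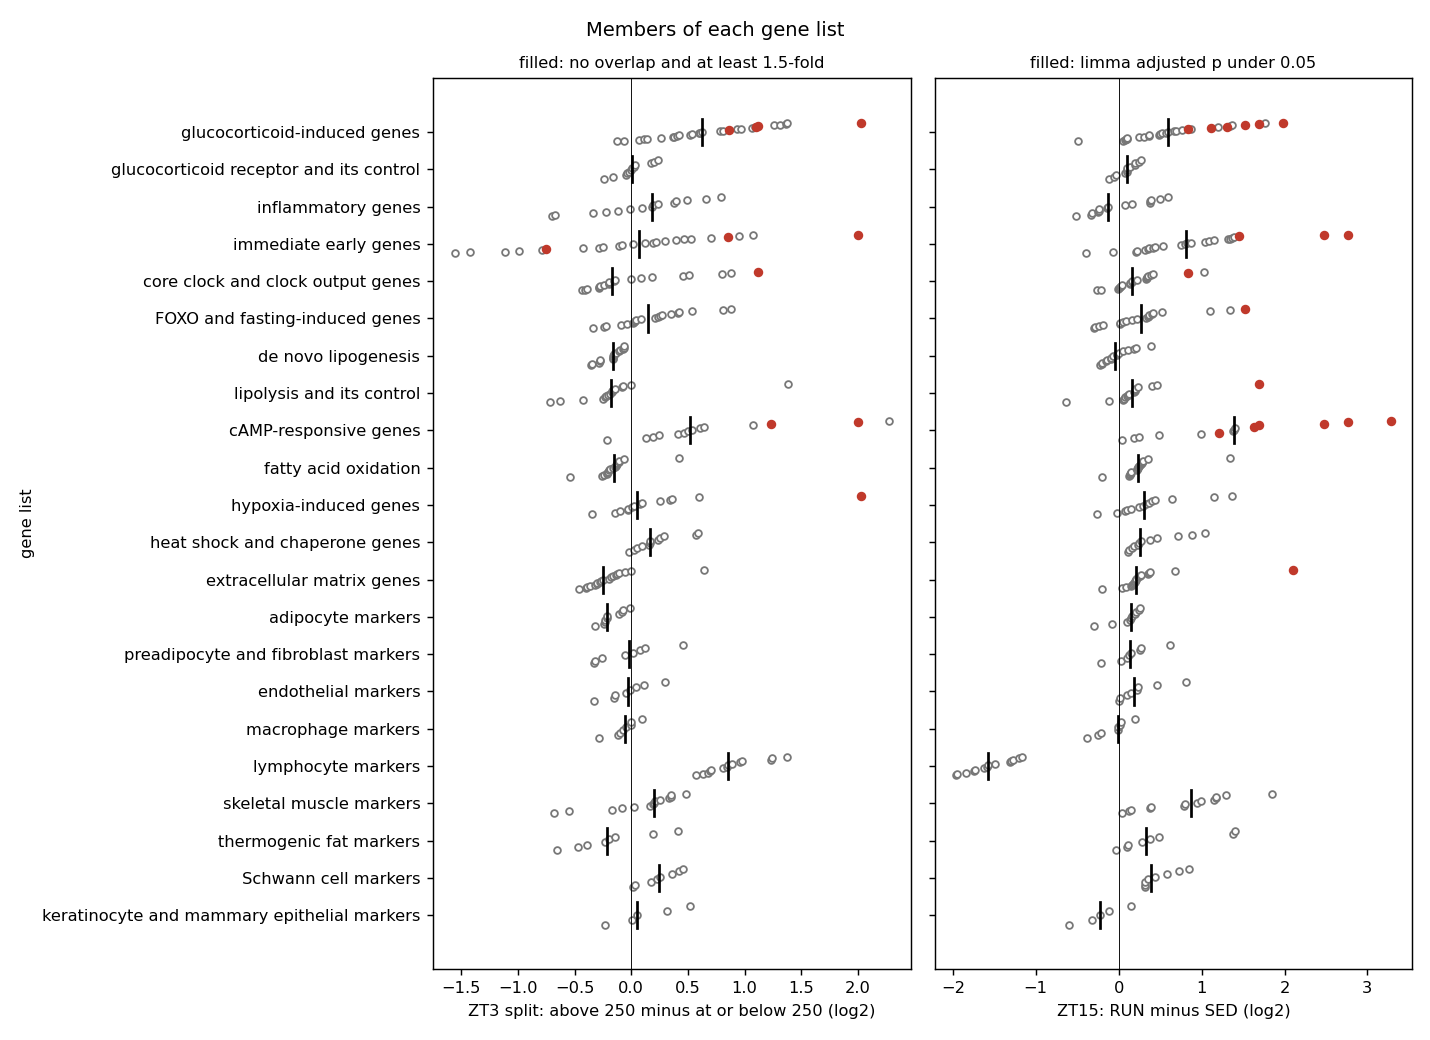
Differences of single genes by list, in the ZT3 split (left, libraries above 250 minus those at or below) and at ZT15 (right, RUN minus SED), on the log2 scale. Bars are list medians. Filled points followed Tsc22d3 on the left and passed limma's adjusted p under 0.05 on the right. The glucocorticoid-induced and cAMP-responsive lists lie mostly right of 0 in both panels. So do other lists, among them the heat shock, Schwann cell, FOXO, hypoxia-induced and skeletal muscle lists.

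Whether genes vary with Tsc22d3 among ZT15 libraries of the same treatment was tested as a slope per doubling of Tsc22d3 with treatment in the model. No gene passed in limma, edgeR or DESeq2 (0% of 16232 in each direction). In limma 676 had an unadjusted p under 0.05, 2.1% with a slope above 0 and 2.06% below, none of the 63 followers among them, and the smallest adjusted p was 0.898. Of the 48 genes 20 had a slope above 0, beside 47% of all genes, and their median was -0.08. Of the 15 genes 4 had a slope below 0. Single slopes had wide errors, with 0.50 ± 0.38 for Per1, 0.46 ± 0.41 for Slc10a6 and 0.69 ± 0.89 for Ddit4 (log2 per doubling ± SE). These counts turned on single sham libraries, and no gene passed in any alternative. Without ZT15_SED_5, which had the lowest Tsc22d3 of the 12 and the most Cd79a, 37 of the 48 slopes were above 0 with a median of 0.33, and 11 of the 15 were below 0. Without ZT15_SED_4, which had the next lowest Tsc22d3, 13 of the 48 were above 0 with a median of -0.40, and 0 of the 15 were below 0. Within the 6 RUN libraries alone 32 of the 48 were above 0 and 8 of the 15 below, and within the 6 SED libraries alone 11 of the 48 and 1 of the 15. With all 12 libraries, 25 of 29 glucocorticoid-induced genes had a slope above 0 (median 0.66), against 3 of 14 cAMP-responsive genes (-0.26). List counts are given with all 12 libraries only. Slopes were also mostly above 0 for matrix (18 of 19, median 1.21) and fibroblast genes (8 of 8, 1.00). The same held for adipocyte (10 of 10, 0.50) and heat shock genes (11 of 12, 0.54). Fatty acid oxidation (2 of 18, -0.46) and endothelial genes (1 of 8, -0.29) went the other way. Slopes were above 0 for 14 of 14 muscle markers (median 6.12) and 8 of 8 macrophage markers (1.45). They were above 0 for 0 of 8 thermogenic fat (-1.55) and 0 of 14 lymphocyte markers (-1.91). The part of cell types in these slopes was not tested.

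Compared as labelled, RUN and SED libraries at ZT3 gave no gene past an adjusted p of 0.05 in limma, edgeR or DESeq2 (0%). The smallest adjusted p was 0.989, and 307 genes had an unadjusted p under 0.05. Tsc22d3 was at 127, 342 and 395 in ZT3 RUN and at 129, 172 and 390.4 in ZT3 SED, and the groups overlapped through ZT3_RUN_1 and ZT3_SED_1. The 48 and 15 genes were chosen in these same libraries, 10 of which have the same side by label and by Tsc22d3, so their values in this comparison carry no further information.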

How the data were processed

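Inguinal white fat of mice was profiled by total RNA sequencing in 24 libraries. The deposited table gives a normalized signal per gene and library, and its values show reads scaled by 1 step per library: every value was a whole number of steps (100% within 0.01 of a read). The tools were STAR, featureCounts from Subread (1.6.2) and limma (3.48.3), per the submitters' processing notes. Genome build, annotation and strand setting: not given in the sources used here. All 16233 identifiers were found in GENCODE M21. A chi-square over genes for the 60 pairs of libraries within groups was 23.3 or more per degree of freedom, so no pair differed by sampling noise alone.

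Differences are on the log2(value + 1) scale, so changes of low genes are understated. The ZT3 split was described, not tested. Tests used limma 3.58.1 with intensity trend in R 4.3.3 on the 12 libraries of 1 time, adjusted by Benjamini-Hochberg over all genes at 0.05, and were checked on simulated counts. edgeR 4.0.16 and DESeq2 1.42.0 on the recovered reads were added after seeing the data. The libraries, genes and lists were chosen with earlier results of these data known. Genes were named by rule: the 15 higher and 10 lower followers of largest difference with above-median expression, up to 4 followers or 2 abundant members per list, the 8 followers of smallest p per ZT15 test, the 5 of widest gap and a fixed set; other names came after their values were seen.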

Additional observations from a re-analysis of the deposited data

Results flagged for a closer look

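Single libraries far from the rest of their labelled group of 6 were sought for Tsc22d3 and for the 18 named followers of largest difference, in 76 tests, of which 20 met the limit (a gap to the nearest library, relative to the group's range, above Dixon's 95% critical value). Chance flags about 1 in 20 such groups. The followers were chosen on the same ZT3 values, so flags there repeat the split and are no separate evidence.

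ZT3_RUN_1 had the lowest Tsc22d3 of ZT3 RUN, 127, the next being 299.8. It also had the highest Klf10 of its group, 49.8. ZT3_SED_1 was the highest library of ZT3 SED for Tsc22d3 (390), Mbd1 (186), Per1 (163), Trp53inp1 (136), Sik1 (120.4), Cyth1 (114), Nfkbia (96.6), Depp1 (89.6), Sdc4 (80.4), Ddit4 (71.6), Apold1 (44.9) and Tbc1d10a (25.2). It was the lowest there for Dmrt2 (21.8). For the followers the non-overlap rule fixed the side of both libraries in advance, so their values add nothing on this point. By Tsc22d3 itself ZT3_SED_1 stood with the exercised libraries and ZT3_RUN_1 with the sham ones. A difference in the animals and an exchange of labels cannot be told apart.

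ZT3_RUN_4 was the highest library of ZT3 RUN for Stk17b (376.5), Gimap6 (171) and Cxcr4 (170.3). ZT15_SED_5 was the highest of ZT15 SED for Gimap6 (135) and Cyth1 (117). Both libraries held lymphocyte RNA, with Cd79a at 99.2 and 54.6.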

How the results depend on the processing

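No call reversed its direction in any setting. The followers kept their sign in each alternative of the split, where the setting without the lowest 25% of genes held only 41 of the 48 and 11 of the 15. Non-overlap fixed that sign in advance in all of these but quantile normalization and median centring, so the kept sign is no support elsewhere. The split gave 48 genes higher and 15 lower: 82 and 22 without the library high in Cd79a, 22 and 1 at a 2-fold minimum, 100 and 58 with no minimum, 59 and 32 with a pseudocount of 0.1, and 45 and 22 without ZT3_SED_1 and ZT3_RUN_1. Leaving out 1 library, which can only relax the non-overlap rule, gave 44 to 82 and 15 to 25. Without ZT3_RUN_6, 76 were higher.

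At ZT15 the 80 genes higher and 15 lower became 35 and 9 without the libraries high in Cd79a, 33 and 3 with blocks of title numbers, 191 and 61 at a threshold of 0.1, 405 and 376 with DESeq2, and 19 to 195 and 1 to 42 without 1 library. The genes lower were 8 with quantile normalization, 7 with centring, 23 with no trend and 26 with all 24 libraries in the model. The 13 calls among the 48 became 7 with all 24 libraries, 8 with the blocks, 21 at 0.1, 30 with DESeq2 (12 with edgeR) and 5 to 20 without 1 library. The 1 call among the 15 became 0 with quantile normalization, centring, the blocks or all 24 libraries, 2 without the Cd79a-high libraries, at 0.1 or with DESeq2, and 0 to 2 without 1 library. The cause was not tested. Of 24 single genes called at ZT15 and followed through the alternatives, 6 (Apold1, Errfi1, Fosl2, Gm17230, Irf4 and Sik1) kept their call in each, and the others lost it in 1 to 16. The slope and the labelled ZT3 comparison gave 0 calls in every setting. No paired analysis was possible because no label gives libraries of different groups a shared replicate number; the blocks above are runs of consecutive title numbers. Reads per library limit genes with values near 1, such as Vdr.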
